A study of Homo sapiens with 24 samples.

Results

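686Tu cells treated for 24 h with epigallocatechin-3-gallate (EGCG) at 40 µM together with resveratrol at 15 µM were compared with untreated 686Tu cells. The comparison rests on 6 libraries of the combination and 6 of the control, 12 of the 24 libraries in the series, and was chosen by treatment label alone. 686Tu (MDA686TU) is an established cell line derived from a squamous carcinoma of the head and neck, and every group used here is this line. The other groups, of 6 libraries each, received EGCG alone at 40 µM or resveratrol alone at 15 µM for 24 h and are used only where the combination is set against a single agent. EGCG was dissolved in water and resveratrol came from a stock in DMSO. Whether the control received DMSO is not given in the sources used here, so resveratrol and its solvent cannot be told apart. The labels number the replicates but do not say whether they were separate cultures or passages, so the p-values measure the spread between these libraries, which may be technical.

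EGCG is the main catechin of green tea and resveratrol is a stilbene of grape skin. Both can be oxidised or conjugated by the cell. Cells answer such compounds through a few well known transcription programmes. NRF2 switches on genes of glutathione synthesis, NADPH supply and quinone reduction when its inhibitor KEAP1 is modified. ATF4, translated when eIF2alpha is phosphorylated, switches on genes of amino acid supply and, with CHOP, genes of prolonged stress. The aryl hydrocarbon receptor drives CYP1 genes. Sterol genes follow SREBP2, and the genes of mitosis are read in G2 under the MuvB complex. Squamous epithelial cells also hold a programme of terminal differentiation, whose last step is the cornified envelope.

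The 12 libraries held 7466690 to 9737420 counts, namely 8542930 to 9737420 in the control and 7466690 to 9597420 with the combination. Of 60617 genes, 15476 passed the filter on low counts and were tested. Markers of squamous epithelium were present in 9 of 9 tested cases, among them KRT5 at an FPKM of 1275 in the control. None of 7 leukocyte markers and 1 of 5 endothelial markers passed the filter, and of 7 fibroblast markers only COL1A1 and COL1A2 did, with COL3A1 and DCN at no more than 1 count in any library. Of these COL1A1 rose with the combination (log2 0.48). Of 4 melanocyte markers PMEL passed the filter, at an FPKM of 0.17 in control, and rose (log2 1.01), while MLANA, TYR and DCT did not pass it. The share of mitochondrial counts separated replicates 1 to 3 from replicates 4 to 6, at 0.249% to 0.279% against 0.491% to 0.759% in the control and 0.281% to 0.326% against 0.627% to 0.728% with the combination. The labels name no batch. The set of replicates was a term in the model, and every set holds 3 libraries of each group.

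The combination changed the level of most expressed genes, mostly by small amounts. At a Benjamini-Hochberg adjusted p under 0.1 and a p under 0.05 in edgeR's quasi-likelihood test, the limits used for differentially expressed genes (DEGs) throughout, 9389 of 15476 genes were DEGs, or 60.7%. Of these 4705 were upregulated, 30.4% of the tested genes, and 4684 were downregulated, 30.3%. The median log2 fold change was 0.38 among upregulated and -0.30 among downregulated DEGs. Among changes of at least 1.5-fold the directions were unequal, as 1266 genes (8.18%) rose and 580 (3.75%) fell, and at 2.0-fold 384 rose and 97 fell. A change of 4-fold or more was reached by 25 upregulated and 6 downregulated DEGs. The 6 combination libraries did not overlap the 6 control libraries in 4942 genes, or 31.9%. Scaling by library size alone, without the TMM factors, moved the median of all genes from -0.00 to 0.08 and the upregulated share of DEGs from 50.1% to 64.4%, so a change within 0.1 of 0 on the log2 scale has no certain direction. In bulk libraries such as these, a change in every cell and a change in the share of cells of a given state, such as cells in mitosis, cannot be told apart.

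**Figure D1:**
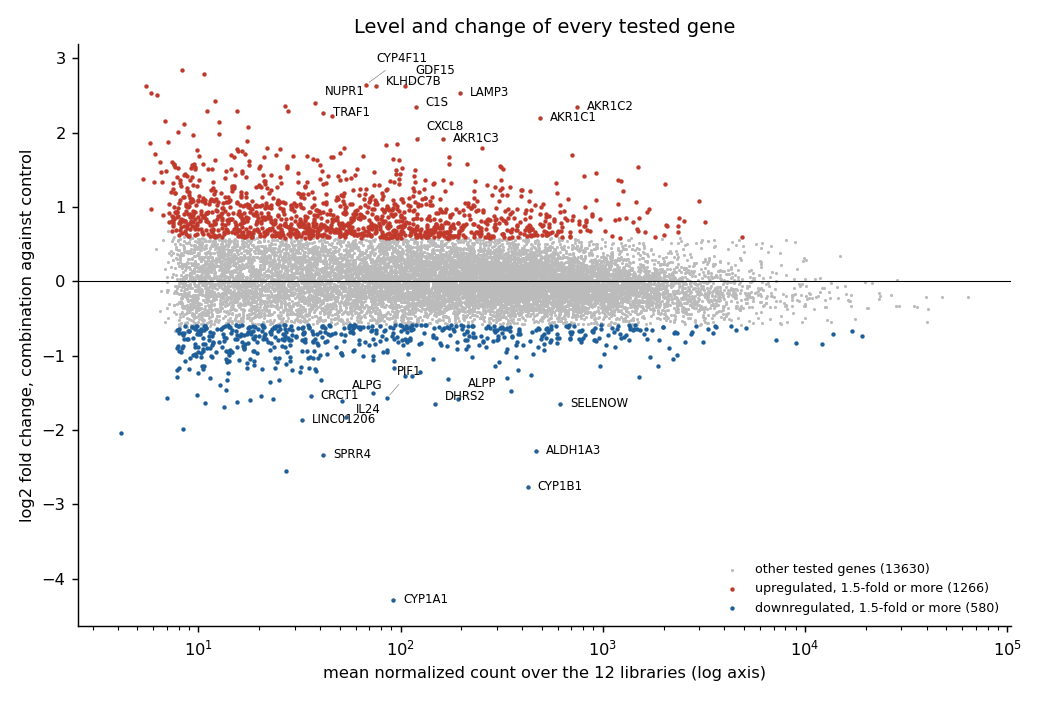
Mean normalized count over the 12 libraries (log axis) against the log2 fold change of combination over control for 15476 tested genes, with DEGs of at least 1.5-fold in red (1266, higher) and blue (580, lower) and the largest separated changes labelled. Changes beyond 1.5-fold upwards lie mostly at low and middle counts, the most abundant genes lie at or under 0, and CYP1A1 is the lowest point at -4.28.

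Direction went with abundance. Of the 5 equal classes of genes by mean log2 of counts scaled to library size (CPM), the lowest held 738 that rose and 393 that fell, and the highest held 812 that rose and 1624 that fell. Upregulated DEGs took 20.6% to 21.3% of all counts in control libraries and 27.1% to 27.9% in combination libraries, and downregulated DEGs 57.5% to 58.7% and 50.1% to 51.0%. The 8 DEGs that lost the most CPM were SLC7A5, KRT5, THBS1, EEF1A1, KRT6A, ACTB, HSP90AB1 and the EEF1A1 pseudogene EEF1A1P5. SLC7A5, the large neutral amino acid transporter, held 45745 to 49952 (median 47394) normalized counts in control libraries and 31391 to 33091 (median 32644) in combination libraries. THBS1, a matrix glycoprotein, fell 1.67-fold from 23981 ± 1157 to 14352 ± 750.4 (mean ± SD, n = 6 here and below). The 8 that gained the most were LINC03061, FTL, SCD, PSAP, FTH1, DHCR7, SQSTM1 and NFE2L1. Both ferritin chains were among them, and FTL rose 1.44-fold from 7356 to 10582. Reads of EEF1A1 and its processed pseudogene cannot be told apart, as the latter is listed at 51358 normalized counts beside 69028 for the gene itself.

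Genes of 28 lists were then described, each by its tested members, the number that passed the test and the median log2 fold change, to be read against 30.4% upregulated, 30.3% downregulated and a median of -0.00 over all tested genes. The lists ranged from a median of 0.75 for interferon-induced genes to -0.87 for the cornified envelope. At the upper end stood interferon-induced, NF-kappaB, cholesterol, NRF2 and ATF4 genes, and at the lower end heat shock chaperones, mitosis, metallothioneins and cornified envelope genes.

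**Figure D2:**
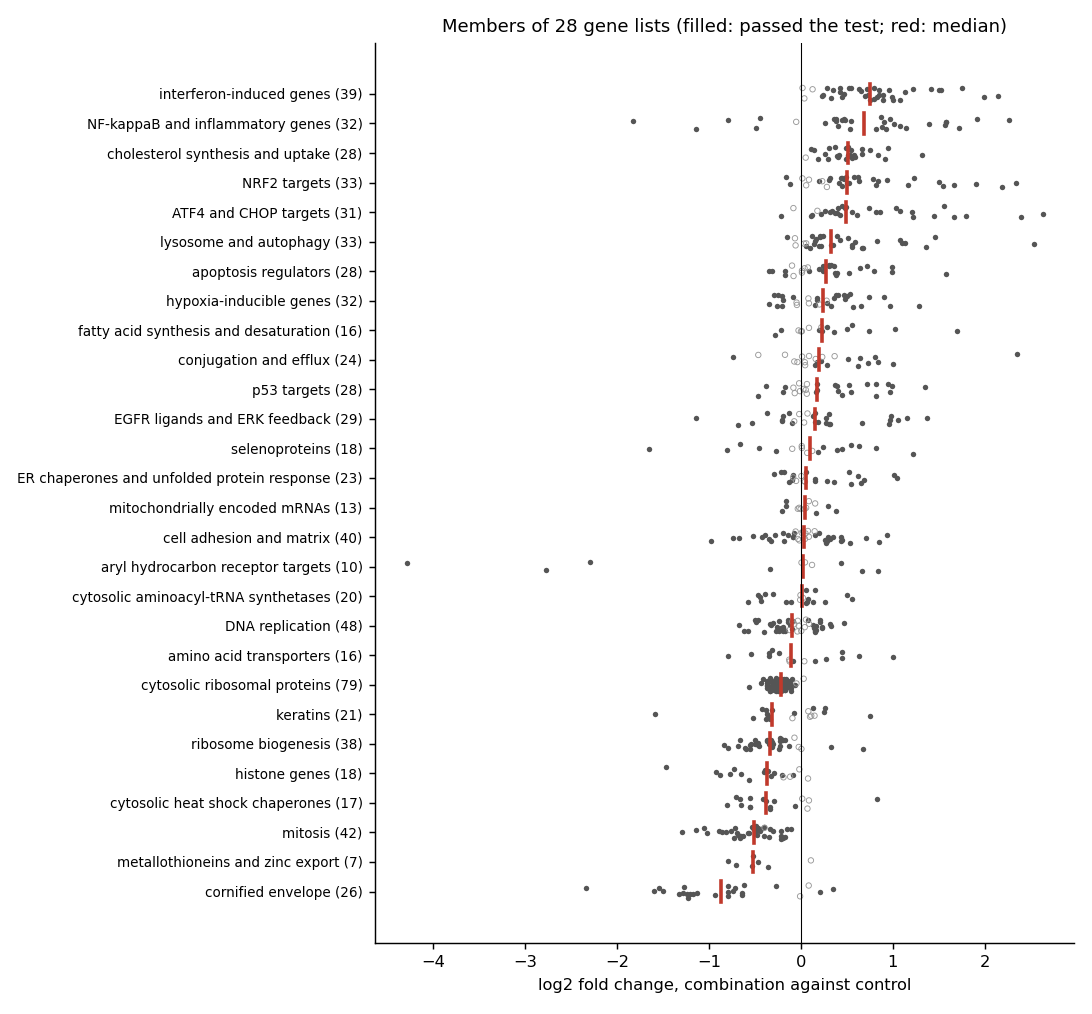
Log2 fold change of combination over control for the tested members of 28 gene lists (number of members in brackets), filled where the gene passed the test and open where it did not, with the median in red. Lists are ordered by median, from 0.75 for interferon-induced genes at the top to -0.87 for the cornified envelope at the bottom. The list labelled ribosome biogenesis also holds other growth genes.

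The steepest fall of any named gene was in the xenobiotic programme. CYP1A1, the main aryl hydrocarbon-oxidising P450 (chr15:74719542-74725536 on GRCh38), held 152 to 193 (median 175) normalized counts in control libraries and 3.38 to 11.4 (median 9.46) in combination libraries, a fall of 19.5-fold (log2 -4.28 ± 0.14 SE, adjusted p = 3.1e-27 in edgeR's test). Every combination library lay far below every control library. CYP1B1, a related P450, fell 6.82-fold and ALDH1A3, which makes retinoic acid, 4.88-fold. The receptor itself moved the other way, as AHR rose from 404 to 639.7 normalized counts (log2 0.66 ± 0.05), and its feedback gene TIPARP fell (log2 -0.33 ± 0.04). Of the 10 tested genes of this list 3 rose, 4 fell and 3 did not pass the test, among the latter ALDH3A1 at a log2 fold change of 0.05. The largest rise of the list was log2 0.85, in a member other than AHR and NQO1. The list's median was 0.03 and lay between -0.34 and 0.11 across filters and scalings, so it gives no direction for the list as a whole. NQO1, which both this receptor and NRF2 can drive, rose (log2 0.44 ± 0.03).

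Of 33 tested NRF2 targets 26 rose and 2 fell, with a median of 0.50. Glutathione synthesis showed its catalytic subunit, GCLC, at 721 to 781 (median 766) normalized counts in the control and 2153 to 2284 (median 2216) with the combination, a 2.91-fold rise with no overlap. The modifier subunit GCLM rose 1.56-fold and the cystine carrier SLC7A11 1.37-fold. The NADPH-making enzyme PGD rose from 1585 to 2441 normalized counts. The aldo-keto reductases AKR1C1, AKR1C2 and AKR1C3 rose 4.57-fold, 5.07-fold and 3.76-fold, though these 3 genes are near-identical and the split of reads between them is uncertain. OSGIN1, a growth inhibitor induced by oxidative stress, rose from 167 to 473. HMOX1, haem oxygenase, rose at low counts, 18.4 to 32.3 (median 23.3) against 35.7 to 53.1 (median 48.5). Thioredoxin genes were split. The reductase TXNRD1 rose (log2 0.44 ± 0.02), PRDX1 was at 4634 ± 153 and 4681 ± 177 without passing the test, TXN fell (log2 -0.16 ± 0.03), and SRXN1 did not pass the test (log2 0.28 ± 0.15). The pentose phosphate enzymes TKT and TALDO1 had log2 fold changes of -0.11 and 0.06, of which TKT passed the test and TALDO1 did not.

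Of 24 tested genes of conjugation and efflux 12 rose and 1 fell, with a median of 0.20. SULT1E1, the oestrogen sulfotransferase, rose from a control range of 2.85 to 14.3 (median 8.85) to a combination range of 41.1 to 53 (median 44.1) normalized counts, or 5.13-fold. The efflux pump ABCC3 rose (log2 0.84 ± 0.04) and ABCC4 fell (log2 -0.73 ± 0.07). The glutathione transferase GSTP1 did not pass the test at 11764 and 12109 normalized counts.

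**Figure D3:**
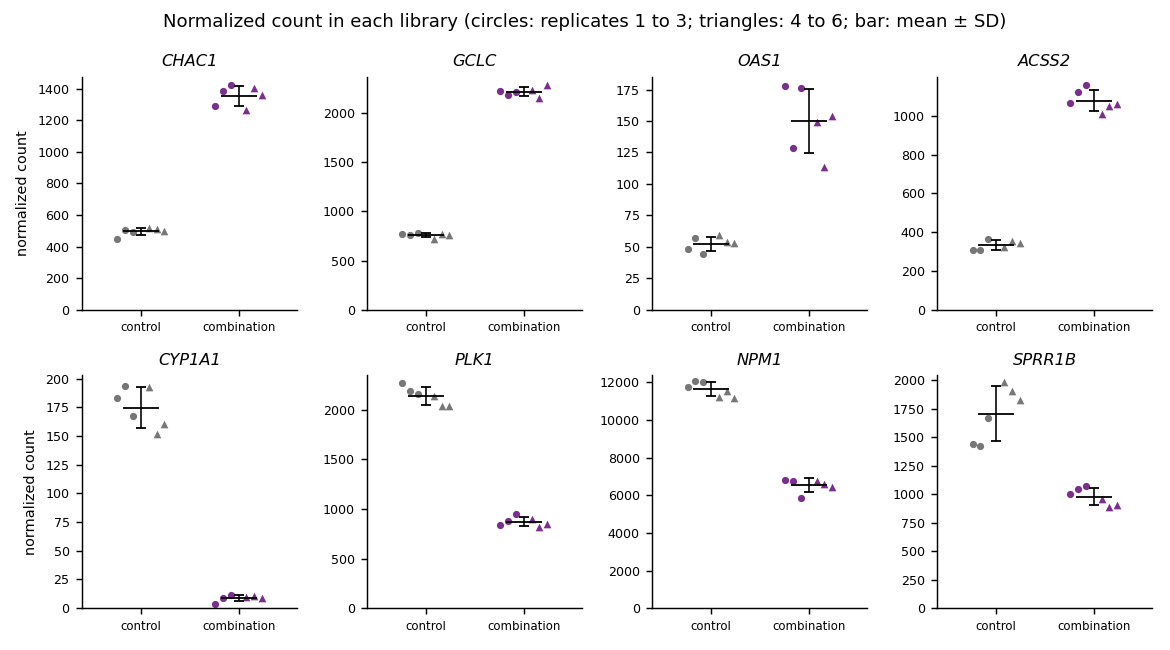
Normalized counts of 8 genes in each control and combination library (linear axes from 0; circles are replicates 1 to 3, triangles replicates 4 to 6, bars mean ± SD, n = 6). CHAC1, GCLC, OAS1 and ACSS2 are higher and CYP1A1, PLK1, NPM1 and SPRR1B lower in all 6 combination libraries than in any control library.

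Of 31 tested ATF4 and CHOP targets 28 rose and 1 fell, with a median of 0.49. CHAC1, which degrades glutathione, held 449.7 to 517 (median 502) normalized counts in control and 1262 to 1424 (median 1373) in combination libraries, and rose 2.74-fold (adjusted p = 1.9e-30, edgeR). The transcription factors ATF3 and DDIT3, the latter encoding CHOP, rose 3.47-fold and 2.12-fold, and the pseudokinase TRIB3 rose 2.05-fold. ATF4 mRNA itself rose by less, from 5346 to 5789 (log2 0.12 ± 0.03). The serine synthesis genes PSAT1 and PHGDH rose by smaller amounts (log2 0.39 and 0.34), and so did the folate enzyme MTHFD2 (log2 0.56). ASNS, often the marker of this programme, was at 7.37 to 34 (median 25.6) and 23.2 to 28.3 (median 26.3) normalized counts and did not pass the test. Proline synthesis did not join, as ALDH18A1 fell (log2 -0.21 ± 0.03) and PYCR1 did not pass the test (log2 -0.08 ± 0.04).

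Among genes with a single RefSeq promoter window of 300 bases (250 before and 50 after the start), the C/EBP-ATF response element core TGATGNAA was sought on either strand. It was found in 1.42% of 7396 tested genes. It stood in 3 of 17 members of the cornified envelope list, most of which fell, and in 2 of 14 members of the ATF4 and CHOP list. Both of these members rose, and the upstream bases of their windows are shown with the element in capitals, for FGF21 (chr19:48755374-48755523, plus strand, GRCh38.p14) and CHAC1 (chr15:40953221-40953470, plus strand), written 5′ to 3′ on the gene's strand.
FGF21: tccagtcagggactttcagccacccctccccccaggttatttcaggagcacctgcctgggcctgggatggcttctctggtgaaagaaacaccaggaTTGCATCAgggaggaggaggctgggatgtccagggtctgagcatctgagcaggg
CHAC1: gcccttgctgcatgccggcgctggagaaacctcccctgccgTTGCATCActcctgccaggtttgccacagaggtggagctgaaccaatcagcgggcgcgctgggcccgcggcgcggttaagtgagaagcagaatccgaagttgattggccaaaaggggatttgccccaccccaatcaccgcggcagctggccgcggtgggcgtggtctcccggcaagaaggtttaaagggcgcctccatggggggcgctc

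Other programmes that share factors with ATF4 were split. Of 20 cytosolic aminoacyl-tRNA synthetases 9 rose and 8 fell, and the element was found in 4 of 11 windows of this list. WARS1 rose from 3849 ± 48.7 to 5639 ± 111 and AARS1 rose (log2 0.50), while VARS1 fell (log2 -0.57). Of 16 amino acid transporters 6 rose and 7 fell, with SLC1A4, a carrier of serine and alanine, at the top (log2 1.00 ± 0.05) and SLC7A5 among the falls (log2 -0.54 ± 0.03). In the endoplasmic reticulum, 12 of 23 genes rose and 6 fell. HERPUD1, a part of the degradation machinery, rose from 643 to 1031, and SEL1L, EDEM1 and the co-chaperone DNAJB9 rose too (log2 0.52, 0.63 and 1.05). Among chaperones, HSPA5 rose 1.22-fold, HSP90B1 fell 1.22-fold, and CALR, PDIA3 and PDIA4 had log2 fold changes of 0.05, 0.01 and 0.03 without passing the test.

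Genes of mitosis fell together. Of 42 tested members 41 fell and none rose, with a median of -0.51. Between the groups 35 did not overlap, against 31.9% of all tested genes. PLK1, the polo-like kinase of mitotic entry and exit, held 2036 to 2274 (median 2150.3) normalized counts in control and 818 to 953 (median 865) in combination libraries, a 2.44-fold fall (log2 -1.29 ± 0.04, adjusted p = 2.9e-29, edgeR). The motor KIF20A fell 2.21-fold, the anaphase activator CDC20 2.07-fold, the kinase AURKA 2.03-fold and cyclin B1 (CCNB1) 1.86-fold. CDK1, the kinase that cyclin B1 activates, fell by much less, from a control range of 1322 to 1462 (median 1377) to a combination range of 1183 to 1417 (median 1272), with overlapping groups. Scaled by library size alone its log2 fold change was -0.03, and without control replicate 5 it was -0.07, neither past the test. NUSAP1 was the member that did not pass the test (log2 -0.39 ± 0.21). The helicase PIF1, also named by its size of change, fell 2.97-fold.

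The cell cycle homology region TTTGAA, the element that the MuvB complex reads in promoters of G2 and mitosis genes, was found on either strand in 22 of 29 windows of this list, against 9.3% of the 7396 windows, 21.3% of the 253 windows of genes that fell at least 1.5-fold and 7.79% of the 642 that rose. Members of this list, PLK1 and CDC20 among them, are also counted in the 253 windows, so these sets are not separate. The CCAAT box was found in 23 of the 29, against 37.9% of all windows. It is not particular to genes that fell, as it stood in 16 of 18 windows of the endoplasmic reticulum list and 13 of 16 of the cholesterol list. The other lists with windows held lower shares than the mitosis list. Shown are the 4 members with the largest falls that hold the element before their start, with every TTTGAA or its reverse complement in capitals: PLK1 (chr16:23678739-23678888, plus strand), CDC20 (chr1:43358731-43358980, plus strand), CENPA, the centromeric histone (chr2:26785906-26786055, plus strand) and HMMR, a spindle protein (chr5:163460482-163460631, plus strand), all from RefSeq on GRCh38.p14.
PLK1: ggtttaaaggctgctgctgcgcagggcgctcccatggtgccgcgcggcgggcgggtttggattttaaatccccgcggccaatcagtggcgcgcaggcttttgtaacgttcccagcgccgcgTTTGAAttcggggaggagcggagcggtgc
CDC20: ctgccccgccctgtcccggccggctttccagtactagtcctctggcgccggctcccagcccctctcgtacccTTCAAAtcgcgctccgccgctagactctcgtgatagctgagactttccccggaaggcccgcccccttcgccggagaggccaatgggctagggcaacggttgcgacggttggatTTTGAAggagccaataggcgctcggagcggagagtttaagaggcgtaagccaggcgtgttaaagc
CENPA: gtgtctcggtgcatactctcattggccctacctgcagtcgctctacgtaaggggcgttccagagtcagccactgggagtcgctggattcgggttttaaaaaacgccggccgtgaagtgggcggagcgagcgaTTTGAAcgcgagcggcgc
HMMR: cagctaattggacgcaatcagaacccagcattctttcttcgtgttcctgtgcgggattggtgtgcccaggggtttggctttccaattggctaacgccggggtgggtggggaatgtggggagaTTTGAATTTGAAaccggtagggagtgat
In PLK1, CENPA and HMMR the element nearest the start begins 29, 18 and 22 bases before it, and in CDC20 elements begin 65 and 178 bases before. HMMR holds 2 adjoining copies. CENPA fell from 313 ± 13.3 to 173 ± 14.6 normalized counts and HMMR from 1014 ± 77.2 to 618 ± 106.

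DNA replication genes went both ways. Of 48 tested members 14 rose (29.2%) and 24 fell (50%). The share that rose was near that over all tested genes (30.4%), and only the share that fell was above its own (30.3%). The median was -0.09 and came to -0.01 when libraries were scaled by size alone. The licensing helicase subunits MCM2, MCM5, MCM6 and MCM7 fell (log2 -0.24, -0.50, -0.49 and -0.21), and GINS2 and DUT fell more (log2 -0.58 and -0.67). MCM6 held 1793 to 1944 (median 1862) normalized counts in control and 1277 to 1389.9 (median 1313) in combination libraries. Of the genes that load or limit replication, CDC6 and CDT1 rose (log2 0.23 and 0.23), and so did both ribonucleotide reductase subunits, RRM2 from 3241 ± 73.4 to 3742 ± 164 and RRM1 (log2 0.15). An E2F site (TTTGGCGC, TTTCCCGC, TTTCGCGC or TTTGCCGC, either strand) stood in 17 of 29 windows of this list, against 5.45% of all, and in 2 of 29 windows of the mitosis list. GINS2 and MCM6 had the largest falls among members with a site before the start, and MCM6 is shown as it holds 4 sites, which overlap in pairs (chr2:135876444-135876693, minus strand, sites in capitals).
MCM6: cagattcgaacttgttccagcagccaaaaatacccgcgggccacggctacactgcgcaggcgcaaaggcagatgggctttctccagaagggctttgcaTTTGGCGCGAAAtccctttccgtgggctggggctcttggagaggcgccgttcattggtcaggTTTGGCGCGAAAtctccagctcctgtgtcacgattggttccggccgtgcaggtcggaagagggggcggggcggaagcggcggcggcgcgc
Cyclin D1 (CCND1) was at 12169 to 12800.0 (median 12636) and 10585 to 12637 (median 12023), with overlapping groups (log2 -0.09 ± 0.03), and lost its call under scaling by library size. Of 18 tested histone genes 14 fell and none rose, with a median of -0.37. These are mRNA libraries and most replication-dependent histone transcripts carry no poly(A) tail. Their levels were low, such as 20.2 in control and 7.26 with the combination for H4C11.

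Growth genes fell by moderate amounts over nearly every member. Of 38 genes of ribosome biogenesis and other growth genes 33 fell and 2 rose, with a median of -0.33. The members outside ribosome biogenesis include MXD1, MXI1, ODC1 and TFRC, and HSPD1 is shared with the heat shock list. NPM1, the nucleolar chaperone nucleophosmin, went from a control range of 11182 to 12062 (median 11674) to a combination range of 5832 to 6812 (median 6668) normalized counts, a 1.78-fold fall, and nucleolin (NCL) from a control range of 11193 to 12126 (median 11415) to a combination range of 7566 to 8268 (median 7808). The box C/D factors NOP56, NOP58 and FBL fell (log2 -0.66, -0.37 and -0.59). The members that rose, MXD1 and MXI1, encode antagonists of growth-promoting E-box factors (log2 0.68 ± 0.08 and 0.33 ± 0.08). The E-box CACGTG stood in 10 of 22 windows of the list, against 10.4% of all. Of 79 cytosolic ribosomal protein genes 77 fell and none rose, by a median of -0.22 and none by 1.5-fold. RPL41 and RPS27 did not pass the test (log2 0.03 and -0.05). Under scaling by library size 67 fell and 1 rose, with a median of -0.13.

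Many processed pseudogenes followed, and their reads may belong to the parent genes. Of 1727 tested processed pseudogenes 82 rose and 739 fell, and of 414 that carry a ribosomal protein name 3 rose and 247 fell, with a median of -0.23. Protein-coding genes alone gave 4242 upregulated and 3635 downregulated DEGs among 12116, and long non-coding RNAs 242 and 174 among 958.

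Cytosolic chaperones fell as well. Of 17 tested heat shock genes 13 fell and 1 rose, with a median of -0.38. HSPA8, the constitutive HSP70, held 16229 to 17577 (median 17243) and 9981 to 11173 (median 10469) normalized counts, HSP90AB1 fell 1.59-fold and the mitochondrial pair HSPD1 and HSPE1 fell (log2 -0.55 and -0.65). The inducible HSPA1A and HSPA1B, which share sequence so that their reads are not separable, also fell (log2 -0.33 and -0.29). HSPB1 and BAG3 did not pass the test (log2 0.07 and 0.02). DNAJB4 rose from 101 ± 6.14 to 180.1 ± 19.3. Of 7 tested genes of metallothioneins and zinc handling, which bind or sense zinc and copper, 6 fell and none rose. MT2A went from a control range of 2703 to 3026 (median 2904) to a combination range of 1991 to 2206 (median 2046) and MT1E from a control range of 937 to 1101 (median 955) to a combination range of 537 to 598 (median 576), although metallothionein mRNAs are alike enough to share reads. The metal sensor MTF1 did not pass the test (log2 0.11).

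Genes of lipid synthesis mostly rose. Of 28 genes of cholesterol synthesis and uptake 27 rose and none fell, with a median of 0.51, and the median lay between 0.46 and 0.52 in the single combination libraries. The list also holds ABCA1 and ABCG1, which export cholesterol, and MYLIP, which lowers the LDL receptor. Its counts are therefore not of synthesis and uptake alone. HMGCS1, at the entry, rose from a control range of 1773 to 1851 (median 1832) to a combination range of 2709 to 3000.2 (median 2914), MVD 1.93-fold, MSMO1 1.69-fold and the sterol reductase TM7SF2 2.50-fold. Of 16 genes of fatty acid synthesis and desaturation 9 rose and 2 fell. ACSS2, which makes acetyl-CoA from acetate, rose 3.24-fold from a control range of 307 to 365 (median 334) to a combination range of 1011 to 1157 (median 1065). The desaturases FADS2, FADS1 and SCD rose 2.03-fold, 1.67-fold and 1.48-fold. FASN rose by less (1.17-fold), ACACA and SREBF1 had log2 fold changes of -0.02 and 0.00 without passing the test, and the elongases ELOVL6 and ELOVL1 fell (log2 -0.22 and -0.28).

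Of 33 lysosome and autophagy genes 28 rose and 1 fell, with a median of 0.33. GABARAPL1, an ATG8 family member, held 631 to 691 (median 670.1) normalized counts in control and 1663 to 1740.5 (median 1713) in combination libraries, MAP1LC3B rose 1.77-fold, WIPI1, a phosphoinositide reader of the phagophore, 2.76-fold, the starting kinase ULK1 2.15-fold and the receptor SQSTM1 2.12-fold. The lysosomal hydrolases GAA and CTSD rose too (log2 0.51 and 0.14). The membrane protein LAMP1 was at 2437 and 2521, within 0.1 of no change (log2 0.05). LAMP3, an inducible relative, rose 5.80-fold, the largest change of the list. PSAP, the precursor of the saposins, rose 1.39-fold and was among the 8 largest gains of CPM.

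Of 39 tested interferon-induced genes 36 rose, none fell, and 33 did not overlap between the groups, against 31.9% of all tested genes without overlap. OAS1, a sensor of double-stranded RNA, went from a control range of 44.3 to 59.2 (median 53.4) to a combination range of 113 to 178 (median 152) normalized counts, MX1 from a control range of 49.4 to 73.8 (median 61.2) to a combination range of 138 to 216 (median 168), and IFIT2 from a control range of 123 to 164 (median 137) to a combination range of 273 to 344 (median 337). The factors above them rose too, IRF7 2.66-fold, IRF9 1.87-fold and STAT2 1.77-fold. RSAD2 had the largest fold of the list at low counts, 2.06 to 6.65 (median 4.47) against 11.9 to 29.6 (median 20.9). IFI44, SAMD9 and TAP2 did not pass the test (log2 0.04, 0.13 and 0.02).

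Of 32 NF-kappaB and inflammatory genes 26 rose and 5 fell, with a median of 0.69. TRAF1, an adaptor of the TNF receptors, rose 4.80-fold, from a control range of 10.1 to 24 (median 12.4) to a combination range of 59.6 to 77.1 (median 69.5) normalized counts. The chemokine CXCL8 rose 3.79-fold and CXCL1 1.96-fold, the apoptosis inhibitor BIRC3 2.99-fold, and the non-canonical subunits NFKB2 and RELB 1.88-fold and 1.90-fold. NFKB1 did not pass the test (log2 -0.05 ± 0.03). The members that fell were secreted factors and an early response gene, namely IL1A from a control range of 2235 to 2579 (median 2416) to a combination range of 1257 to 1539.7 (median 1405), IL1B from a control range of 361 to 423 (median 413) to a combination range of 164 to 196 (median 191), IL24 (3.54-fold), the antagonist IL1RN (log2 -0.49) and IER3 (log2 -0.45). The complement protease C1S, named by its size of change, rose from a control range of 30.6 to 50.7 (median 38.3) to a combination range of 181 to 240.2 (median 188).

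Growth arrest and death genes moved in part. Of 28 p53 targets 16 rose and 4 fell, with a median of 0.18. CDKN1A, the p21 inhibitor of cyclin-dependent kinases, rose 2.56-fold from a control range of 664 to 737 (median 694) to a combination range of 1634 to 1915 (median 1771), but MDM2 was at 362 and 358 and did not pass the test (log2 -0.02 ± 0.05). Of 28 apoptosis regulators 18 rose and 4 fell, with a median of 0.27. The BH3-only genes BBC3 and PMAIP1 rose (log2 0.99 and 0.72), as did CASP10 (log2 1.00), while BAX, BAK1 and APAF1 fell (log2 -0.17, -0.18 and -0.32) and MCL1 did not pass the test (log2 0.01). GDF15 and NUPR1, both stress-induced, rose 6.20-fold and 5.27-fold.

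Of 29 genes of EGFR ligands and ERK feedback 16 rose and 9 fell. The ligand HBEGF rose from a control range of 147 to 198 (median 176) to a combination range of 373 to 503 (median 465), and AREG fell (log2 -0.20 ± 0.03). EGFR mRNA was at 13511 and 13339.6 and did not pass the test (log2 -0.02 ± 0.03). FOSL1, an AP-1 subunit, fell (log2 -0.68 ± 0.03). Of 40 adhesion and matrix genes 15 rose and 15 fell. MMP14 and TIMP2 rose (log2 0.85 and 0.94), CDH1, the epithelial cadherin, rose (log2 0.43 ± 0.03), and VIM fell (log2 -0.39). Mitochondrially encoded mRNAs gave 3 rises and 3 falls among 13, with single-library medians from -0.67 to 0.74.

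Genes of terminal squamous differentiation fell. Of 26 tested cornified envelope genes 22 fell and 2 rose, with a median of -0.87. SPRR4 held 55.7 to 81.7 (median 68.1) normalized counts in control and 9.06 to 25.4 (median 11.2) in combination libraries, a 5.05-fold fall. Involucrin (IVL), a scaffold of the envelope, went from a control range of 346 to 529 (median 454) to a combination range of 209.9 to 293 (median 271), and SBSN from a control range of 125 to 197 (median 162) to a combination range of 61.7 to 73.8 (median 64.9). The genes that rose, PPL and TGM1, encode a desmosomal linker and the crosslinking transglutaminase (log2 0.35 ± 0.04 and 0.21 ± 0.08). SPRR3, LCE3D and CRCT1, also of the envelope, fell, with log2 fold changes of -1.22, -1.50 and -1.54. The SPRR2 genes share sequence and cannot be resolved singly. An AP-1 site (TGANTCA, either strand) stood in 9 of 17 windows of this list, against 4.72% of all.

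The median of these 26 genes was -0.62 over replicates 1 to 3 but -1.28 over replicates 4 to 6, a difference of the list that was not tested. Of the 26, 1 passed the test of a difference between the sets, namely SPRR1B. Over all genes it passed for 2 of 15476 genes (0.0129%), with 901 genes, or 5.82%, at an unadjusted p under 0.05. The count of 2 rose to 21, 11 or 6 without combination replicate 1, 2 or 4 and to 9 or 4 without control replicate 3 or 4, and it was 2 without any of the others. SPRR1B, a cornified envelope precursor, had log2 fold changes of -0.53 and -1.06 and a difference of -0.52 (adjusted p = 0.0033, edgeR). It held 1421 to 1986 (median 1747) normalized counts in control and 888 to 1069 (median 977) in combination libraries, and in the plot of single libraries the control values of replicates 4 to 6 lie above those of replicates 1 to 3. A2ML1, a protease inhibitor of keratinocytes, was the other (log2 0.03 and -0.77, adjusted p = 0.0039, edgeR), and its pooled groups overlapped (exact permutation p = 0.089). C3orf14, KRT16 and B4GALNT3 came next with an adjusted p of 0.12 each in edgeR's test, past the limit. The mitochondrial share of counts also differed between the sets, 0.249% to 0.279% and 0.491% to 0.759% in control libraries, and its part in this difference was not tested.

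**Figure D4:**
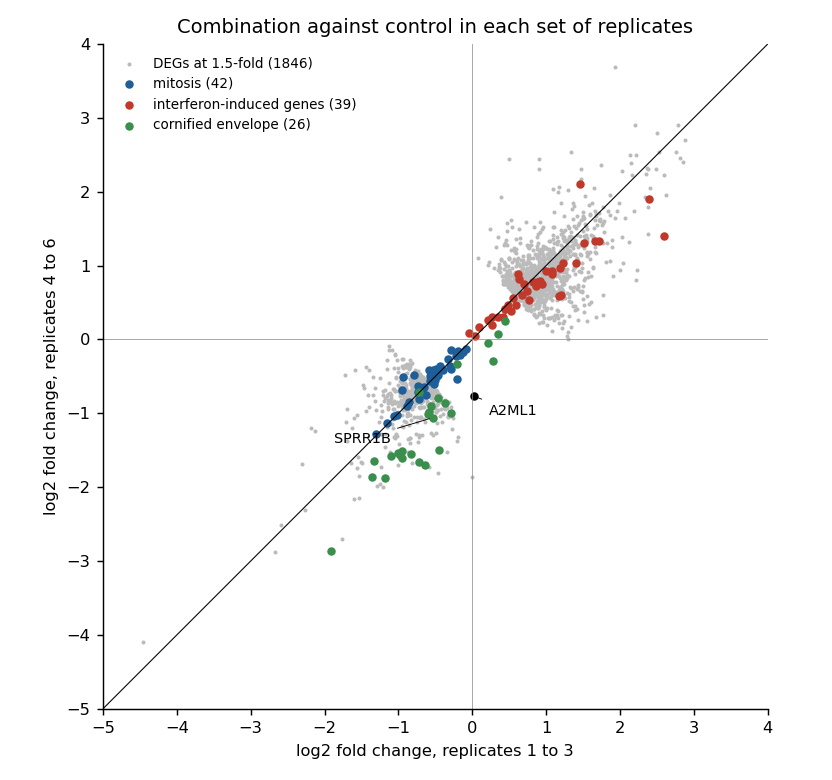
Log2 fold change of combination over control in replicates 1 to 3 (horizontal) and 4 to 6 (vertical) for DEGs of at least 1.5-fold in grey, with mitosis, interferon-induced and cornified envelope genes coloured and A2ML1 in black. Mitosis genes lie along the line of equality, while most cornified envelope genes lie below it, with medians of -0.62 and -1.28.

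The keratins fell by less. Of 21 tested keratins 12 fell and 4 rose, with a median of -0.32. The basal keratins KRT5 and KRT14 fell 1.29-fold and 1.26-fold, and the stress keratins KRT6A and KRT17 1.27-fold and 1.28-fold. KRT80 rose (log2 0.76 ± 0.03) and KRT23 fell the most (log2 -1.58 ± 0.16). KRT16 was at 3876 to 4921 (median 4485) and 4354 to 5391 (median 4503), and did not pass the test (log2 0.08). It passed without combination replicate 5 or 6 or control replicate 5 (0.11, 0.11 and 0.13), and under the wider and the stricter filter on counts (0.08 and 0.11). Fitted alone, replicates 1 to 3 passed with a rise (0.25) and replicates 4 to 6 with a fall (-0.09), so KRT16 has no settled direction. CRCT1 and LINC01206, the latter a non-coding RNA, and the placental-type phosphatases ALPP and ALPG, near-identical to each other, were also among the 12 largest separated falls (log2 -1.54, -1.87, -1.58 and -1.61), as was the reductase DHRS2 (log2 -1.65). Among the 12 largest rises not yet given were CYP4F11, a fatty acid hydroxylase, at 14.3 to 23.7 (median 18.9) normalized counts in control and 98.9 to 137 (median 109.6) in combination libraries. KLHDC7B went from a control range of 17.5 to 28.6 (median 20) to a combination range of 101 to 166 (median 131), and an unnamed long non-coding RNA, ENSG00000272405, rose too (log2 2.23 ± 0.17).

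The combination was next set against each single agent, which asks how it differed from either agent given alone. These comparisons share the combination libraries with the one above. Against resveratrol, 711 genes were higher (4.59% of those tested) and 697 lower (4.5%), and against EGCG 9102 genes differed (58.8%). Among lists with members higher than under resveratrol were NF-kappaB genes (19 of 32 higher, none lower), hypoxia-inducible genes (17 of 32 higher, none lower), ATF4 and CHOP targets (14 of 31 higher, none lower) and adhesion and matrix genes (19 of 40 higher, 2 lower). Among lists with members lower than under resveratrol were mitosis (29 of 42), cornified envelope (11 of 26) and keratins (10 of 21, with 3 higher). So were ribosome biogenesis with other growth genes (9 of 38, with 2 higher) and selenoproteins (8 of 18, with 2 higher). In the NRF2 list 2 genes were higher and 2 lower of 33, and in the cholesterol list 5 of 28 were higher. Of the 12 largest rises, CYP4F11, AKR1C1, AKR1C2, AKR1C3 and ENSG00000272405 did not pass the test against resveratrol, and the others were higher. Of the 12 largest falls, CYP1A1, CYP1B1, ALDH1A3, LINC01206, IL24, DHRS2 and ALPG did not pass it, and the others were lower. CYP1A1 was at 7.56 ± 2.74 normalized counts under resveratrol and 8.72 ± 2.80 under both.

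Selenoproteins carry selenocysteine, and several of their mRNAs are degraded when selenium is scarce. SELENOW, a small redox protein, held 905 to 1009.7 (median 916) normalized counts in control libraries and 759 to 850.3 (median 815) under resveratrol, against 289.7 to 324 (median 309) under EGCG and 279 to 324 (median 290.4) under the combination. The combination and EGCG libraries overlapped each other and lay far below the other groups. Against resveratrol the log2 difference was -1.45 ± 0.04 (SE, adjusted p = 2.4e-27, edgeR). SELENOH was also low in the groups that received EGCG, with 555 ± 28.6 in control and 547 ± 25.5 under resveratrol against 352 ± 27.7 under EGCG and 317 ± 22.3 under both. It was lower with the combination than with EGCG, while for SELENOW that difference did not pass the test, and resveratrol alone lowered SELENOW, while its difference for SELENOH did not pass the test. The glutathione peroxidase GPX1 was at 1724 ± 143 and 1671 ± 62.3 against 1143 ± 80.7 and 1088 ± 51.9. SELENOT was lower than under resveratrol as well (log2 -0.36 ± 0.05). GPX4, which protects membrane lipids, was at 1164 ± 84.4 in control and 1169 ± 80.8 with the combination, but lower with the combination than with resveratrol alone (1416 ± 48.4, log2 -0.28 ± 0.04). Other members rose against control, among them GPX2, also an NRF2 target, 2.34-fold, TXNRD1 (log2 0.44) and SEPHS2, which makes the selenium donor (log2 0.82). Over the 18 tested selenoproteins 8 rose and 5 fell against control, with a median of 0.10 that therefore describes neither subgroup.

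**Figure D5:**
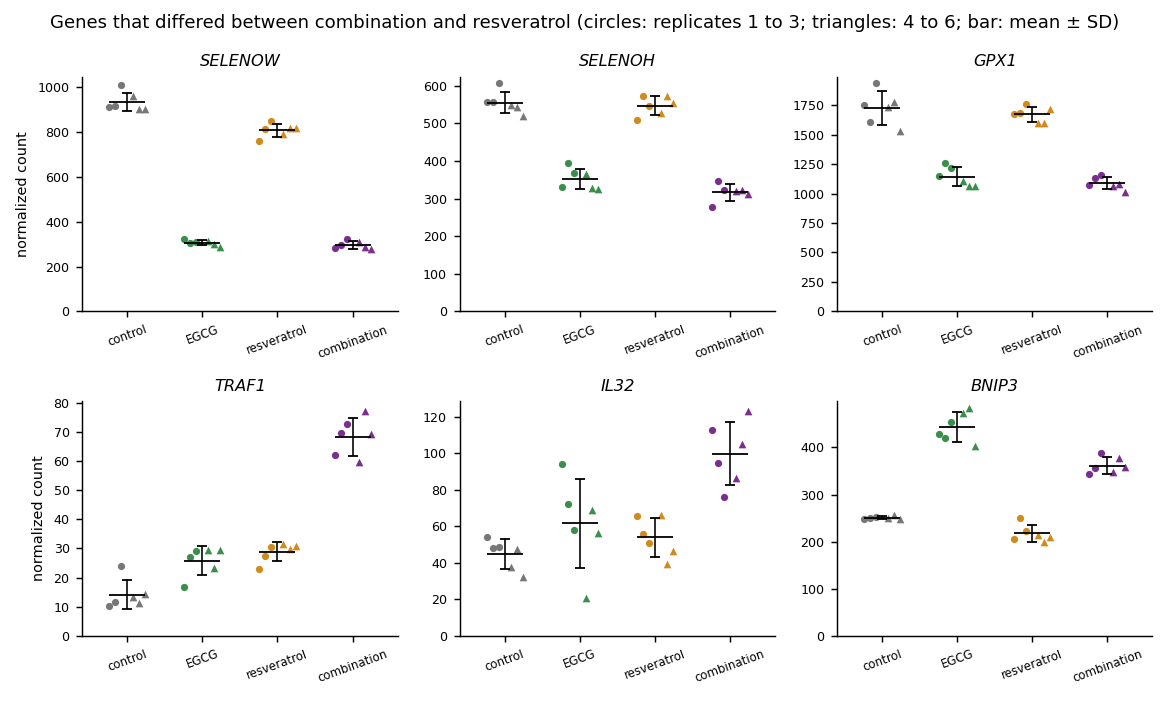
Normalized counts of 6 genes in every library of the 4 groups (linear axes from 0; circles are replicates 1 to 3, triangles replicates 4 to 6, bars mean ± SD, n = 6). SELENOW, SELENOH and GPX1 are low with EGCG and with the combination, TRAF1 is highest with the combination, and BNIP3 is raised with EGCG and with the combination but not with resveratrol.

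TRAF1, whose rise against control is given above, had the largest log2 difference among separated genes higher than under resveratrol, at 25.8 ± 5.02 under EGCG and 28.9 ± 3.25 under resveratrol against 68.4 ± 6.55 under both (log2 1.24 ± 0.13 over resveratrol). IL32 and BIRC3 were also among the 5 largest (log2 0.87 ± 0.15 and 0.70 ± 0.07 over resveratrol), although IL32 spread widely with EGCG alone, from 20.6 to 94.2 (median 63.6). The hypoxia-inducible BNIP3, a mitophagy receptor, held 248 to 256 (median 250.5) normalized counts in control libraries, 200.2 to 250.5 (median 212) under resveratrol, 343 to 389 (median 357) under both agents and 403 to 484 (median 442) under EGCG. Its pseudogene BNIP3P1, whose reads may come from BNIP3, showed the same order. LDHA, lactate dehydrogenase, was at 6249 ± 201 under both agents, below the control (7951 ± 134) and EGCG (9199.6 ± 179) and above resveratrol (5225 ± 110.3). VEGFA rose against control 1.38-fold and was higher than under resveratrol (log2 0.18 ± 0.03). Against control, 18 of 32 hypoxia-inducible genes rose and 8 fell, and the 8 held the glycolytic GAPDH, PGK1, TPI1, ENO1 and LDHA. The core ACGTG, which the E-box CACGTG contains, stood in 12 of 19 windows of this list, against 27.7% of all. It also stood in 15 of 22 windows of the list of ribosome biogenesis and other growth genes, most of which fell. The other lists with windows held lower shares.

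Among separated genes lower than under resveratrol, the 5 largest differences were those of SELENOW, SELENOH, KANK4, PIF1 and SBSN. KANK4 held 66.7 to 77.6 (median 71.4) normalized counts with resveratrol and 23.2 to 56.3 (median 31.8) with the combination. PIF1 was at 75 ± 9.46 and 43.2 ± 5.82, and SBSN at 107 ± 13.3 and 66 ± 4.13. In the mitosis list PLK1 was at 1126 ± 60 with resveratrol and 873 ± 48.9 with the combination (log2 -0.36 ± 0.04), and at 1925 ± 54.3 with EGCG. DLGAP5, a spindle protein, was at 1092 ± 82.2 and 876 ± 80.7 (log2 -0.33 ± 0.05). Whether the added change equals that of EGCG alone was not tested here.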

How the data were processed

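RNA was sequenced from 24 libraries of 686Tu cells, 6 in each of 4 groups. Per the labels and the study's methods, bcl2fastq (2.17.1.14), Trimmomatic (0.36), FastQC (0.11.5), HISAT2 (2.0.4, GRCh38), SAMtools (1.3.1) and DESeq2 (1.20.0) were used. The counting program, annotation release and strand setting are not given in the sources used here, so a gene and an overlapping antisense gene cannot be told apart. The deposited gene counts are raw whole numbers, which the authors also deposited as a normalized signal, the counts divided by 1 size factor per library, called normalized counts here, and as FPKM made by the authors from these per gene length. Columns of normalized counts served for levels, and FPKM only for levels between genes.

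Counts were tested with edgeR (4.0.16, R 4.3.3) by the quasi-likelihood test on all 24 libraries, with TMM scaling, the default filter on low counts, group and replicate set (1 to 3, 4 to 6) as terms, and Benjamini-Hochberg adjustment over 15476 genes. SE are from the same fit. Exact permutation tests were two-sided over 924 splits. In simulated counts for the comparison with control (15320 genes), 47 of 50 genes raised 1.5-fold and 43 of 50 lowered to 0.667-fold were recovered. All 50 of each changed 2-fold were recovered too. The same run gave 27 false calls, and recovery at low counts alone was not tested. It changed 200 genes over the whole group, equally up and down, and 200 more in 1 replicate set, with 1 spread for all genes. In the data 60.7% of genes were DEGs, so the run cannot show recovery, false calls or scaling for a response that wide. Gene symbols, biotypes and positions were joined from the GENCODE annotation by gene identifier. Symbols it lacked came from a reference list of gene names, and 60261 of 60617 genes had a symbol. Promoter windows were taken from RefSeq (GRCh38.p14) by symbol, and only genes with a single window were used, 7396 of the tested genes. Alternatives were DESeq2 (1.42.0), other scalings, filters and thresholds, a replicate block, fits without the replicate set or without EGCG and resveratrol, each replicate set alone and each library left out. Correlations of same-numbered libraries' deviations from their group means lay between -0.00 and 0.09, so the numbers were not taken to pair the libraries.

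Named genes were the 12 largest rises and falls among DEGs without overlap and with a mean of at least 50 normalized counts in the higher group, the 8 largest gains and losses of mean CPM, the 5 largest differences from resveratrol in each direction by the same limits, the 5 smallest p-values for a difference between replicate sets, and members of the described lists. The lists, motifs and members were chosen with earlier results of these data known. A fold change near 0 counts is understated, and the depth of 7466690 to 9737420 counts limits genes at low levels.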

Additional observations from a re-analysis of the deposited data

Results flagged for a closer look

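Of 226 groups of 6 libraries (113 named genes in control and combination), 19 held a library standing apart from its group by Dixon's test for 6 values, which flags about 1 group in 20 by chance. Combination replicate 3 gave 7 of the 19. Its normalized counts, given with the range of the other 5 libraries, were SPRR4 (25.4 against 9.06 to 12.4), ALPP (117 against 87.5 to 96.4), KRT16 (5391 against 4354 to 4709), HMMR (408 against 636 to 706), ISG15 (366 against 299 to 323), DNAJB4 (141 against 186 to 194) and WARS1 (5851 against 5549 to 5659.9). In combination replicate 1 they were CYP1A1 (3.38 against 8.44 to 11.4) and DHRS2 (86.8 against 64.2 to 72.6), in combination replicate 2 SLC7A5 (31391 against 32526 to 33091) and in combination replicate 6 SULT1E1 (53 against 41.1 to 45.5). Among control libraries, replicate 1 stood apart for DHCR7 (5293 against 4956 to 5059) and CHAC1 (449.7 against 495 to 517), replicate 3 for TRAF1 (24 against 10.1 to 14.2) and SLC7A11 (2356 against 2604 to 2658), replicate 4 for GCLC (721 against 760.3 to 781), and replicate 6 for AKR1C2 (202 against 244 to 267), CCNB1 (2542 against 2764 to 2849) and HSPA8 (16229 against 17072 to 17577). Leaving out the library concerned ended the call of none of these genes, apart from KRT16, which had no call to lose.

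The change under the combination differed between replicates 1 to 3 and 4 to 6 for 2 genes by the interaction term of edgeR's quasi-likelihood test. For A2ML1 replicates 4 to 6 minus replicates 1 to 3 was -0.80 on the log2 scale, as the log2 fold change went from 0.03 to -0.77. For SPRR1B the difference was -0.52, from -0.53 to -1.06, with a fall in both sets. What separates the sets is not in the labels and was not tested.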

How the results depend on the processing

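The number of DEGs lay between 7705 and 9640 over the alternatives, and from 9110 to 9278 with 1 library left out. With every gene of at least 1 count tested, 1074 DEGs passed 2.0-fold, and with at least 10 counts in every library 260, against 481. These filters add or remove genes at low counts. Leaving out 1 library gave 477 to 506 at 2.0-fold, 1833 to 1928 at 1.5-fold, 1035 to 1454 against resveratrol and 8780 to 8946 against EGCG. The number of genes whose change differed between replicate sets was 23 with every gene of at least 1 count, 8 with a replicate block and 2 to 21 with 1 library left out, against 2, so that count is unsteady. With the replicate block 9479 genes were DEGs, 1850 at 1.5-fold and 481 at 2.0-fold, and the block changed no call of a named gene. Scaling by library size alone gave 9500 DEGs, of which 64.4% rose, and 2048 at 1.5-fold, of which 80.9% rose against 68.6%. There CDK1, CCND1 and C3orf14 lost their calls, and KRT16, PRDX1 and GPX4 gained them. A2ML1 was at 0.026 in replicates 1 to 3 alone and C3orf14 at 0.14 in replicates 4 to 6 alone, both opposite to the pooled direction. C3orf14 also lost its call without combination replicate 1 (-0.23) or 3 (-0.15), and with combination and control fitted alone (-0.26), CDK1 lost it without control replicate 5 (-0.07) and in replicates 1 to 3 alone (-0.09), and CCND1 in replicates 4 to 6 alone (-0.05). B4GALNT3 gained a call without combination replicate 3 (-0.22) and in each replicate set alone, in opposite directions (0.24 and -0.49). KRT16 gained calls in 8 settings, in replicates 4 to 6 alone as a fall. Of 113 named genes 105 kept direction and side of the threshold in every setting tried. Of 28 list medians only 4 stayed within their spread between libraries in every setting, and 48 of 616 values moved beyond it. List medians changed sign for aminoacyl-tRNA synthetases, receptor targets of the xenobiotic list, mitochondrially encoded mRNAs and adhesion genes, all with medians near 0. Where a value moved, the cause was not tested.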
